A study of Rattus norvegicus with 12 samples.

Results

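The transcription factor NF-κB was followed at the level of RNA through 9 gene symbols: the subunit genes Nfkb1, Nfkb2, Rela and Relb, the feedback inhibitors Nfkbia and Tnfaip3, the cytokine gene Tnf, and the target genes Icam1 and Nos2. Every row whose gene name in the authors' tables equalled one of these symbols was taken, with its value in all 12 libraries. Of the 9 symbols, 8 were matched. Tnf stood on 2 gene IDs, so 9 of the 20400 gene IDs in the series are described, and Nos2, which no row matched by name, was not analysed here.

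NF-κB proteins are dimers that rest in the cytoplasm until an inflammatory signal leads to the breakdown of their inhibitor, after which they enter the nucleus and switch on genes of inflammation, cell adhesion and survival. Among the genes they switch on are those of their own inhibitors, a feedback that ends the response, and of some of their own subunits. Their activity is set largely by protein location, which RNA levels do not measure. In cartilage and bone marrow stroma the pathway is known for cytokine, chemokine and matrix protease production in response to interleukin 1 and tumour necrosis factor.

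All 12 libraries, in 4 groups of 3, were made from bone marrow mesenchymal stem cells (BMSCs) of wild-type rats. All groups were grown in low-glucose medium with a supplement that induces chondrogenesis, so no group is free of that medium. BMSC-C was an untreated control, and BMSC-CT received CTGF for 1 week and then TGF-β1, for a time the labels do not give. BF-C and BF-D are labelled as fibrotic BMSCs, which the series design calls induced fibrotic chondrocytes (iFCs), and BF-D received docetaxel, which stabilizes microtubules. The labels give neither the dose and time of docetaxel nor how the BF cells were made, and BF-C is the control for BF-D alone. They also do not say whether the replicates were separate cultures, so a p-value here covers no more than the variation among libraries.

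The tables held 15580310 to 19870047 reads per library. BMSC-CT replicate 3 stood apart: it had reads in 14621 genes, against 16100 to 17265 in the other 5 BMSC libraries, and correlated with its own group at 0.878 and 0.895 (Pearson, log2 values). It was also scaled up: 1 read there is worth 1.61 normalized counts, against 0.813 to 1.06 in the other 5 BMSC libraries. BF-D replicate 2 stood apart less, at 0.969 and 0.965. Deviations from the group mean went with gene length (Spearman over genes) at -0.404 in BMSC-CT replicate 3, against 0.381 and 0.325 in its group. In BF-D replicate 2 the value was -0.356, against 0.271 and 0.263. Deviations within a group balance out, so opposite signs within it are partly built in. The values were 0.216, -0.0647 and -0.180 in BMSC-C, and 0.0338, -0.0133 and -0.0366 in BF-C. The part of this length trend in any result was not tested. All 12 stromal cell markers were in the tables, and levels are given as RPM, reads scaled to a library total of 1000000. Their sum ran from 11985 to 14951 RPM in BMSC-C, between 7386 and 15102 in BMSC-CT, and between 54912 and 70324 in the BF libraries. In BMSC-CT 8 of the 12 had a lower mean than in BMSC-C and 4 a higher one. Among these Pdgfra averaged 1009 RPM in BMSC-C and 107 in BMSC-CT, and Dcn 8672 and 1897, while Col1a1 averaged 1645 and 6614. All 18 macrophage markers had reads in every BMSC-C library, 16 in every BMSC-CT library and 12 in every BF-C and BF-D library. Their summed level was 9323 to 11145 RPM in BMSC-C and 12235 to 14967 in BMSC-CT. It was 24.4 to 28.0 RPM in BF-C and 42.6 to 49.1 in BF-D. Of the chondrocyte markers, Col2a1, which defines the cell type, averaged 0.17 RPM in BF-C and 0.29 in BF-D. Col11a1 averaged 490 and 354 there and 40.6 in BMSC-C, and makes up most of that list's summed level. Since these are bulk samples, fewer cells of a type and less RNA per cell cannot be told apart.

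Promoters are shown because several of these genes are both parts and targets of the pathway, and some of their start regions hold letters that match the sequence the factor binds. RefSeq promoters of the rat assembly GRCr8 matched 7 of the 9 symbols, without Relb and Nos2, each as 250 bases before and 50 after the gene start. The κB consensus was searched on both strands, with overlapping matches merged. It was found in 4 of the 7 promoters and in 2515 of all 33469 promoters (7.51%). Tnfaip3 held 3 matches, beginning 170, 67 and 55 bases before the start, Nfkb2 held 1 at 20 bases before, Nfkbia 1 at 31 bases before, and Nfkb1 1 at position 4 after the start. A second motif, GGAAATTCC or its reverse complement GGAATTTCC, was chosen after the Icam1 sequence was seen. It lies within the Nfkb1 and Nfkbia matches and 218 bases before the Icam1 start, and 111 of all promoters hold it (0.332%). Rela and Tnf held neither motif in this window. The stretches before the start follow, 5′ to 3′ on the gene's strand, with matches to either motif in capitals. Nfkb2, Nfkbia and Tnfaip3 are shown for their matches upstream of the start, and Icam1 as the member whose change was called. A match describes letters and is not a measured binding site.
Nfkb2 promoter, chr1:255108124-255108373, plus strand: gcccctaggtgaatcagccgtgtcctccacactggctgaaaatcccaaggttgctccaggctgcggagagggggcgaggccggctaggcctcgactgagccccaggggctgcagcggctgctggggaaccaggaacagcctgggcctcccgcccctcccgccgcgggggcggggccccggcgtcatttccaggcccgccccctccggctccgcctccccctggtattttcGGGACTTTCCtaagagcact
Nfkbia promoter, chr6:78597073-78597322, minus strand: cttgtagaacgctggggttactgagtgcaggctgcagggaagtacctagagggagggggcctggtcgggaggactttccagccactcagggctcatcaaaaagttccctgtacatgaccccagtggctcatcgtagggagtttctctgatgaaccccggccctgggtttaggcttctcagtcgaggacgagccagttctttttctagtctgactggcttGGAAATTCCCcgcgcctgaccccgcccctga
Tnfaip3 promoter, chr1:15543980-15544229, minus strand: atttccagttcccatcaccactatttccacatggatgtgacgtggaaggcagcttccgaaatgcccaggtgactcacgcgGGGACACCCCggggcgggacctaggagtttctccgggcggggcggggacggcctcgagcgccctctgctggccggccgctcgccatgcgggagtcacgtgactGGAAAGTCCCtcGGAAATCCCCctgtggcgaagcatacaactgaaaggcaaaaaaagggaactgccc
Icam1 promoter, chr8:27829595-27829844, plus strand: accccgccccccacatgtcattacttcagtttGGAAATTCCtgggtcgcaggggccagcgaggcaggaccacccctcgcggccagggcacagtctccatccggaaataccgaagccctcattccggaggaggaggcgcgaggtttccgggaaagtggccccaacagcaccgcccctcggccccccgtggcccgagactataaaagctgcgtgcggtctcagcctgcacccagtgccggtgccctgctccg

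Icam1 and the 4 subunits were read deeply in every group, whereas Tnf had 0 to 98 reads per library over both rows. On a scale of RPM per kilobase of gene length (RPKM), which allows comparison between genes, the order of the BMSC-C means was Icam1 at 220 ± 11.0, Nfkbia at 105 ± 7.62, Nfkb2 at 52.6 ± 9.65, Nfkb1 at 49.7 ± 2.21, Rela at 47.7 ± 4.45, Relb at 29.9 ± 2.47 and Tnfaip3 at 11.6 ± 1.22 (SD, n = 3). The 3 neighbours Nfkb2, Nfkb1 and Rela do not differ beyond their spread. The Tnf rows averaged 1.13 ± 1.54 and 0.407 ± 0.177. In BF-C the highest mean was that of Nfkbia at 117 ± 2.89, followed by Icam1 at 72.5 ± 1.86, Nfkb1 at 52.3 ± 1.68, Nfkb2 at 39.1 ± 0.726 and Rela at 37.7 ± 1.43. There Relb averaged 21.8 ± 0.429 and Tnfaip3 15.5 ± 0.426. Nfkb2 and Rela are again within their spread of each other, though Nfkb2 was the higher in each BF-C library.

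**Figure D1:**
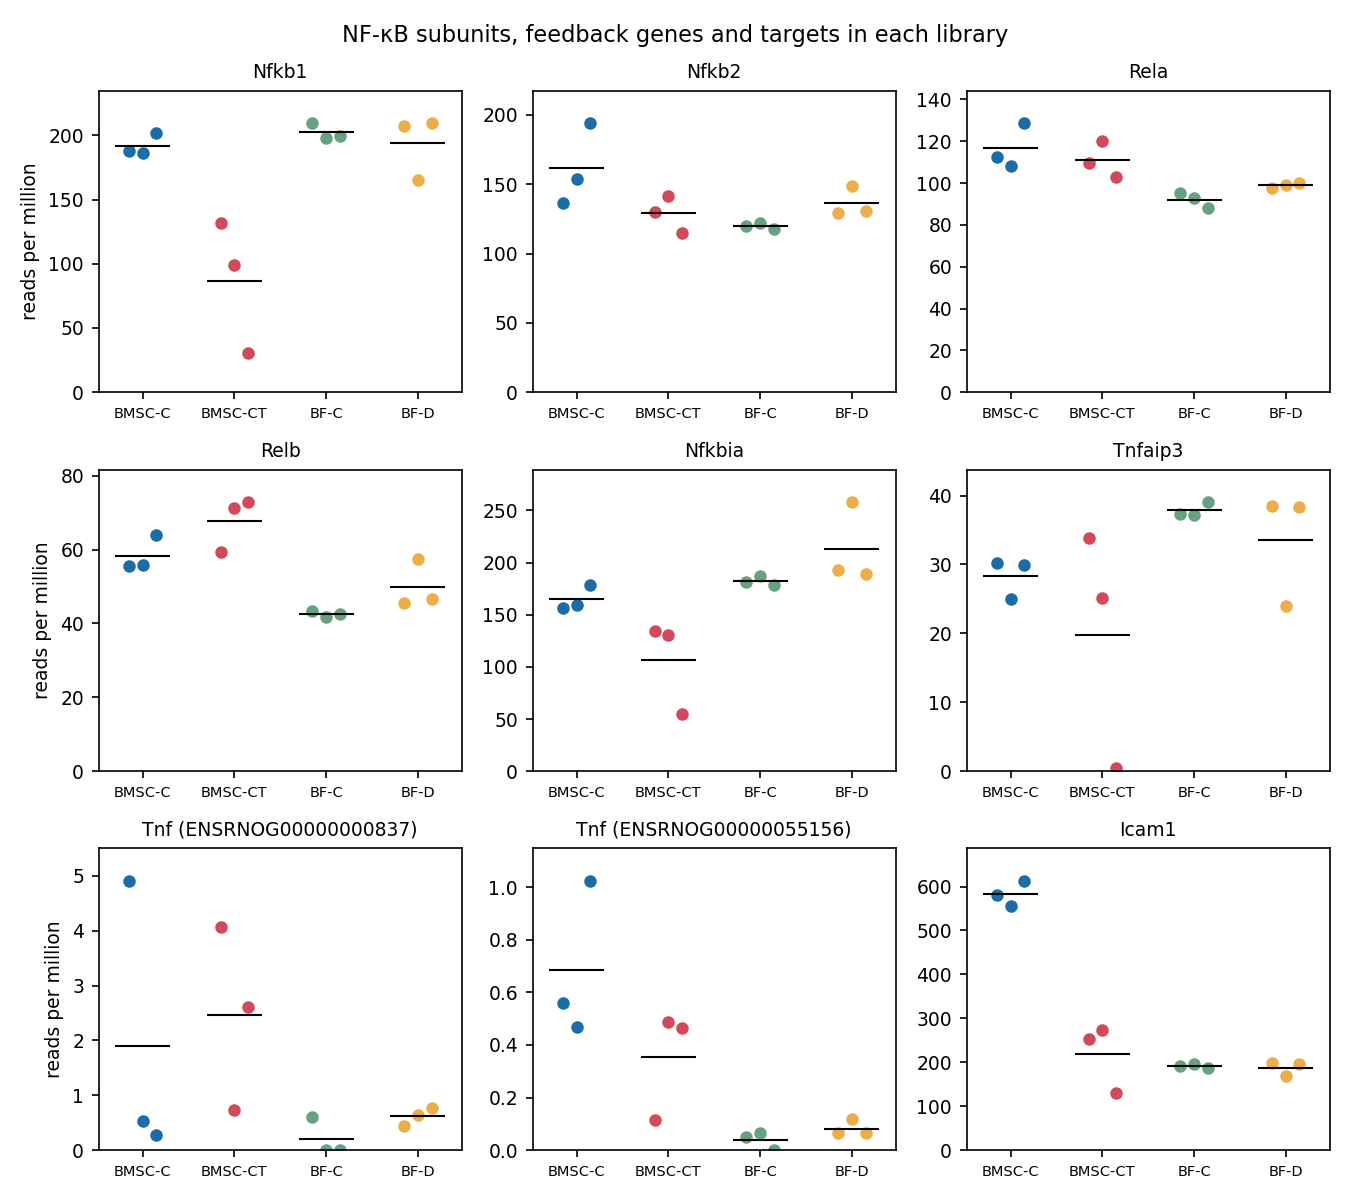
Level of each matched gene in RPM (vertical axis, from 0, a different scale in each panel) for the 4 groups, with 1 point per library and a line at the group mean. Icam1 lies between 555 and 613 in BMSC-C and between 130 and 273 in every other library, and Rela between 88.2 and 129 in all 12. BMSC-CT replicate 3, the right-hand BMSC-CT point, is the lowest of the 12 for Icam1, Nfkb1, Nfkb2, Nfkbia and Tnfaip3.

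By its group means in RPM, Rela was among the steadiest genes. In normalized counts it was less even, at 2858 in BMSC-CT replicate 3 against 1559 to 1962 in BMSC-C. Rela encodes the subunit that carries the activation domain of the classical dimer, and its level ran from 88.2 to 129 RPM, with a highest group mean 1.27 times the lowest. Of 13100 genes compared, 95.1% had a wider range of group means than Rela. The same share was 91.7% for Nfkb2 and 80.0% for Relb, and 54.6% for Nfkb1 and 39.6% for Icam1. The BMSC and BF tables were normalized separately, so levels set across them are a description without a test. On that footing Icam1 averaged 583 ± 29.2 RPM in BMSC-C and 218 ± 77.2 in BMSC-CT. Its means of 192 ± 4.92 in BF-C and 188 ± 16.5 in BF-D were close to that of BMSC-CT.

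The comparison of BMSC-CT with BMSC-C asks what CTGF followed by TGF-β1 changed. Icam1, the adhesion molecule that binds leukocyte integrins, was the 1 gene of the 9 tested rows that was called changed, and it fell. Nfkb1 was lower in all 3 treated libraries without being called, and Rela, Relb and Nfkb2 were not called either. Several cytokine and chemokine targets fell further than Icam1 did. In this comparison limma called 18.6% of 16818 genes at an adjusted p under 0.05, with 7.7% higher and 10.9% lower, and the median log2 fold change of all genes was -0.15. edgeR called 17.6% and DESeq2 32.7%, and Icam1 was the 1 member called by each. Scaling every library to the same total moved that median to -0.53 and quantile normalization to 0.08.

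Nfkb1, which encodes the precursor of a DNA-binding subunit, had 2741, 2684 and 3075 normalized counts in BMSC-C and 2106, 1712 and 842 in BMSC-CT. All treated libraries lay below all controls, and replicate 3 was the lowest. The log2 fold change was -0.97 ± 0.35 (SE, n = 3), with an adjusted p of 0.0988 by limma. Without BMSC-CT replicate 3 it was -0.57, with an adjusted p of 0.0143, where 43.0% of all genes were called.

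Nfkb2, the precursor of the subunit of the non-canonical pathway, had 1989, 2218 and 2959 normalized counts in BMSC-C and 2083, 2448 and 3203 in BMSC-CT. The groups overlap almost entirely, and the log2 fold change was 0.11 ± 0.25 (SE), with an adjusted p of 0.766. The 95% interval of this difference, -0.50 to 0.71, spans 0, and the sign turned, to -0.31, when every library was scaled to the same total. In RPM the BMSC-CT libraries stood at 130, 142 and 115. Replicate 3 was thus the highest treated library in normalized counts and the lowest in RPM.

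Rela had 1641, 1559 and 1962 normalized counts in BMSC-C and 1750, 2078 and 2858 in BMSC-CT. The groups overlap, with the highest normalized count in replicate 3 of the treated group. In RPM that library was the lowest treated one, at 103 against 109 and 120. The log2 fold change was 0.35 ± 0.24 (SE), with an adjusted p of 0.311. It was 0.16 without replicate 3, and -0.072 when every library was scaled to the same total.

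Relb, the partner of the processed Nfkb2 protein, had 808, 804 and 974 normalized counts in BMSC-C and 948, 1233 and 2031 in BMSC-CT. The highest control lay just above the lowest treated library. In RPM the BMSC-CT libraries stood at 59.3, 71.3 and 72.9, so replicate 3 was close to replicate 2 on that scale. Its log2 fold change was 0.64 ± 0.31 (SE), with an adjusted p of 0.175. Without BMSC-CT replicate 3 it was 0.33 (adjusted p 0.141), with every library scaled to the same total 0.21 (0.441), and with quality weights per library 0.49 (0.0205). Those weights called 9217 of the 16818 genes.

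Nfkbia encodes IκBα, the inhibitor that holds the classical dimer in the cytoplasm and is resynthesized when the dimer is active. It had 2283, 2298 and 2720 normalized counts in BMSC-C and 2146, 2259 and 1523 in BMSC-CT. All treated libraries lay below the controls, the nearest pair by a small margin, and the log2 fold change of -0.32 ± 0.22 (SE) was not called, with an adjusted p of 0.318. It was -0.14 without replicate 3. With Icam1 and Nfkb1 it makes 3 of the 9 rows whose treated libraries all lie below the controls, where 28.9% of all genes tested do so.

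Tnfaip3 encodes A20, a ubiquitin-editing enzyme that shuts down signalling upstream of the kinase complex. It had 440, 360 and 457 normalized counts in BMSC-C and 541, 434 and 11.3 in BMSC-CT. Replicates 1 and 2 of the treated group lie within or above the control range, and replicate 3 is far below every other library. The log2 fold change was therefore -1.55 ± 1.40 (SE), with an adjusted p of 0.425, and it was 0.22 without replicate 3.

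Tnf encodes tumour necrosis factor, an activator of the pathway and one of its targets. The gene is listed on chromosome 20 under 2 IDs, between which reads may have been divided, so each row is uncertain. ENSRNOG00000000837 had 71.5, 7.61 and 4.33 normalized counts in BMSC-C and 65.1, 12.7 and 72.5 in BMSC-CT, and ENSRNOG00000055156 had 8.13, 6.77 and 15.6 and then 1.81, 8.44 and 12.9. Summed over both rows, the libraries held 98, 17 and 23 reads in BMSC-C and 74, 20 and 53 in BMSC-CT. The groups overlap in either row and in the sum. The log2 fold changes of the rows were 1.44 ± 1.14 and -0.56 ± 0.72 (SE), with adjusted p of 0.371 and 0.572.

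Icam1 had 8448, 8002 and 9340 normalized counts in BMSC-C and 4034, 4718 and 3623 in BMSC-CT. The groups are well separated, at 8597 ± 681 against 4125 ± 553 (SD, n = 3), and on this scale replicate 3 is near the other treated libraries. In RPM it lies further down, at 130 against 252 and 273. Icam1 fell 2.09-fold, with a log2 fold change of -1.06 ± 0.20 (SE) and an adjusted p of 0.0157 by limma. edgeR gave an adjusted p of 0.0223. The log2 fold change was -1.49 with every library scaled to the same total and -1.50 with quantile normalization. The call is lost when BMSC-C replicate 1, 2 or 3 is left out, with adjusted p of 0.0799, 0.0822 and 0.0685, while the log2 fold change stays between -1.17 and -0.98 over the 6 libraries left out in turn. Of the 18 macrophage markers 9 had a higher mean in BMSC-CT and 9 a lower one. Lyz2, at 4066 RPM in BMSC-C and 8102 in BMSC-CT, carries most of the higher sum, while Adgre1 averaged 3145 and 963. The part of these markers and of the stromal markers in the level of Icam1 was not tested.

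No row matched Nos2, the inducible nitric oxide synthase. The row LOC497963 (ENSRNOG00000057443), which the tables describe as similar to an inducible nitric oxide synthase, was chosen after its values were seen and is not identified here as Nos2. It had 2322, 1360 and 2332 normalized counts in BMSC-C and 376, 289 and 67.6 in BMSC-CT. The groups do not overlap, and the row fell 9.94-fold, with a log2 fold change of -3.31 ± 0.65 (SE) and an adjusted p of 0.0194 by limma. Without BMSC-CT replicate 3 the log2 fold change was -2.56 (adjusted p 0.000149). The call is lost without any 1 of the BMSC-C libraries, with adjusted p of 0.0691 to 0.0955.

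**Figure D2:**
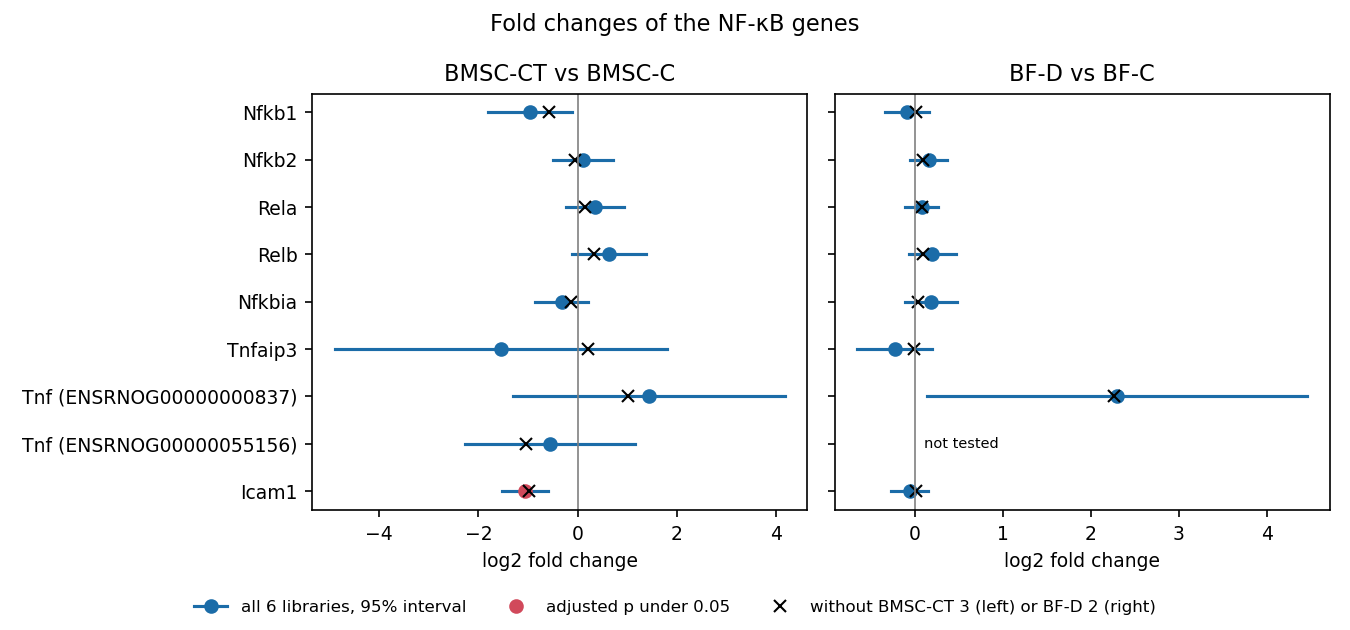
log2 fold change (horizontal axis, on the log2(normalized count + 1) scale) of each matched gene in BMSC-CT against BMSC-C (left) and in BF-D against BF-C (right), with its 95% interval and a cross for the value without the library that stands apart. Icam1 at -1.06 in the left panel is the 1 point called at an adjusted p under 0.05, and the cross of Tnfaip3 lies at 0.22, on the other side of 0 from its point at -1.55.

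The genes around the members were read from 5 lists of ligands, receptors, adaptors and kinases, inhibitors, and target genes, with 105 symbols, of which 99 were in the BMSC table and 98 rows were tested. Of these rows 7 rose and 20 fell, and their median log2 fold change was -0.48 against -0.15 for all genes. Target genes made up most of the falls: 2 of 27 rose, 11 fell and 14 were not called, with a median of -0.83. Among the receptors 0 of 19 rose and 4 fell, with a median of -0.84. Among 9 ligand rows 2 rose and 2 fell, among 20 inhibitors 2 rose and 2 fell, and among 23 adaptors and kinases 1 rose and 1 fell. These 23 include the subunit gene Rel, which is neither an adaptor nor a kinase and was not called. Of all genes tested 18.6% were called, 7.7% higher and 10.9% lower. Counting both directions, receptors and inhibitors lie near that share and adaptors and kinases below it. Target genes and the few ligands lie above it. With every library scaled to the same total, 2 rose and 22 fell over the 5 lists. Without BMSC-CT replicate 3 the counts over the 5 lists were 22 higher and 39 lower, where 43.0% of all genes were called. The rises were 0, and the falls 11, 11 and 13, without BMSC-C replicate 1, BMSC-C replicate 2 or BMSC-CT replicate 2. Without BMSC-C replicate 3 there were 2 rises and 14 falls. The calls over all genes moved too, from 736 to 7204 with 1 library left out, against 3134 with none left out. The part of the macrophage and stromal markers in these counts was not tested.

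Il6, the cytokine interleukin 6, fell from 4918 ± 505 to 23.8 ± 11.1 normalized counts, a log2 fold change of -7.75 (adjusted p 0.000262). Csf3, the granulocyte colony-stimulating factor, fell from 30817 ± 6117 to 345 ± 171, by -6.58 on the log2 scale (adjusted p 0.000397). Ptges, the inducible prostaglandin E synthase, fell from 8843 ± 1408 to 143 ± 58.6, by -6.01. Each of these falls is larger than that of Icam1, the member that was called. Cxcl2, a neutrophil chemokine, fell from 7773 ± 2370 to 218 ± 35.4, by -5.11. The 7 other targets that fell had log2 fold changes of -7.05 to -1.07. The 2 targets that rose, chosen after their values were seen, were Bcl2l1, an inhibitor of apoptosis, at 1.42 and the interferon-responsive chemokine Cxcl10 at 1.85.

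Among the ligands, Il33, an interleukin 1 family alarmin, fell from 1141 ± 262 to 14.5 ± 11.8 normalized counts (log2 fold change -6.50, adjusted p 0.00181), and its receptor gene Il1rl1 fell from 432 ± 62.2 to 3.28 ± 1.21 (-6.69, adjusted p 0.000365). Il1a, which encodes interleukin 1α, fell from 4237 ± 542 to 698 ± 407. The TNF family ligands Tnfsf13b and Tnfsf12 rose by 2.57 and 1.16 on the log2 scale. Of the other receptors Tlr4, which senses endotoxin, had a log2 fold change of -1.95, Tnfrsf12a, the receptor of the Tnfsf12 protein, -1.19, and Tlr6, a partner of Tlr2, -0.95.

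Among the kinases, Ikbke, a non-canonical IκB kinase, rose by 0.95 and Chuk, the α subunit of the IκB kinase complex, fell by 1.89 on the log2 scale. Among the inhibitors Bcl3, a nuclear IκB protein, rose by 1.13 and Nfkbie, which encodes IκBε, by 0.90. Tnip3, a protein that binds A20, fell by 1.23, and Tax1bp1, an adaptor of A20, by 1.38. Of these 18 genes named from the lists, Il33, Il1rl1, Il6, Ptges, Cxcl2 and Csf3 were called without each library in turn. The other 12 lost the call at least once, and Tnfsf12, Tlr6, Ikbke, Chuk, Bcl3 and Nfkbie also lost it when libraries were scaled to the same total.

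**Figure D3:**
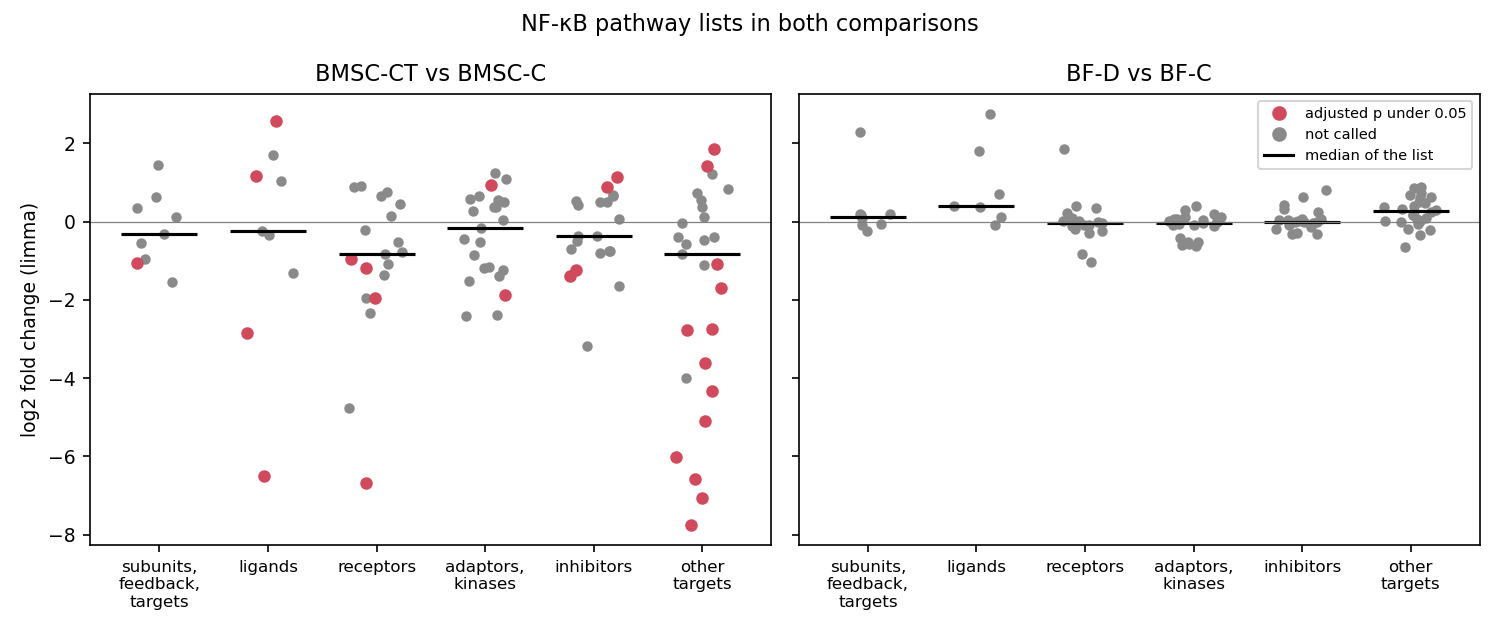
log2 fold change (vertical axis, limma on log2(normalized count + 1)) of every tested gene of the member list and the 5 pathway lists in BMSC-CT against BMSC-C (left) and BF-D against BF-C (right), with called genes in red and a bar at each list's median. In the left panel 11 of the 27 target genes are red below 0 and their median is -0.83, and in the right panel no point is red and the target median is 0.26.

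The comparison of BF-D with BF-C asks what docetaxel changed in the fibrotic cells. None of the 8 member rows tested was called, and the 7 rows other than Tnf had differences whose 95% intervals all lay between -0.65 and 0.48 on the log2 scale. Of all 17076 genes limma called 2 (0.0117%), edgeR 2 and DESeq2 72 (0.422%), and 0 members were called by any of these tools. At an unadjusted p under 0.05 by limma, 1 member, Tnf, was higher and 0 were lower. The share of all genes at that unadjusted threshold was not counted. A p that misses the threshold does not show that the groups are alike.

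Nfkb1 had 3532, 3332 and 3321 normalized counts in BF-C and 3436, 2737 and 3438 in BF-D, where replicate 2 was the lowest. The groups overlap, and the log2 fold change was -0.09 ± 0.11 (SE), with an adjusted p of 0.785. Nfkb2 had 2022, 2055 and 1963 in BF-C and 2146, 2460 and 2145 in BF-D. All treated libraries lie above the controls, by a log2 fold change of 0.16 ± 0.09 (SE), with an adjusted p of 0.706.

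Rela had 1600, 1560 and 1471 normalized counts in BF-C and 1620, 1638 and 1640 in BF-D, a difference of 0.08 ± 0.08 (SE) on the log2 scale (adjusted p 0.750). Relb had 730, 702 and 708 in BF-C and 757, 951 and 763 in BF-D, with replicate 2 the highest, and a log2 fold change of 0.20 ± 0.12 (SE; adjusted p 0.706). For both the treated libraries all lie above the controls. Nfkb2, Rela and Relb are thus 3 of the 8 rows with every BF-D library above every BF-C library, where 7.78% of all genes tested lie that way, and the differences of these 3 were 0.20 or less on the log2 scale.

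Nfkbia had 3057, 3155 and 2979 normalized counts in BF-C and 3192, 4271 and 3099 in BF-D. The groups overlap, replicate 2 of BF-D is far above the others, and the log2 fold change was 0.19 ± 0.13 (SE; adjusted p 0.706), or 0.04 without that library. Tnfaip3 had 629, 626 and 652 in BF-C and 639, 398 and 629 in BF-D. Here replicate 2 is far below the other 5 libraries, and the log2 fold change of -0.23 ± 0.18 (SE; adjusted p 0.712) was -0.0037 without it.

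Tnf was near the counting limit. ENSRNOG00000000837 had 10.2, 0 and 0 normalized counts in BF-C and 7.45, 10.7 and 12.6 in BF-D, with a fitted log2 fold change of 2.30 that depends on the pseudocount and an adjusted p of 0.706. Summed over both rows the libraries held 13, 1 and 0 reads in BF-C and 8, 13 and 13 in BF-D, so the groups overlap through BF-C replicate 1. ENSRNOG00000055156, at 0 to 1.94 normalized counts, had too few reads to be tested.

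Icam1 had 3207, 3316 and 3127 normalized counts in BF-C and 3278, 2791 and 3231 in BF-D. The groups overlap, with BF-D replicate 2 the lowest, and the log2 fold change was -0.06 ± 0.09 (SE; 95% interval -0.27 to 0.16; adjusted p 0.839). LOC497963 had 657, 432 and 589 in BF-C and 873, 670 and 442 in BF-D, which also overlap, with a log2 fold change of 0.21 (adjusted p 0.791).

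In the 5 pathway lists 0 of 93 tested genes were called by limma or edgeR in the docetaxel comparison. The 26 target genes had a median log2 fold change of 0.26, against a median of -0.0044 for all genes. At an unadjusted p under 0.05 by limma, 10 of these target genes were higher and 1 was lower. The share of all genes at that unadjusted threshold was not counted, so nothing is read from these counts. DESeq2 called 5 listed genes, all higher. They were Mmp9, a gelatinase, Cxcl2, Csf3, Il1b, which encodes interleukin 1β, and Il1rl1, named after their values were seen.

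Mmp9 had 71246 ± 1321 normalized counts in BF-C and 107956 ± 3538 in BF-D, a log2 fold change of 0.60 with an adjusted p of 0.231 by limma. Cxcl2 had 3154 ± 103 and 5865 ± 1193, with 0.88 and 0.285. Csf3 had 7269 ± 194 and 12214 ± 2482, with 0.73 and 0.413. For all 3 genes every BF-D library lay above every BF-C library, where 7.78% of all genes tested lie that way. These 3 were picked by their DESeq2 call on the same libraries, so this separation is not separate evidence. Without BF-D replicate 2, limma called 12 of the listed genes, all higher, and 0 members, where 1.54% of all genes were called. The 12 included 9 targets, with Il1b, Il1rl1 and Traf1, a TNF receptor adaptor that is itself induced by the pathway, named after its value was seen.

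The authors' deposited table of KEGG terms for docetaxel holds 20 terms. The smallest adjusted p, 1.83e-07, is that of Cytokine-cytokine receptor interaction, with 0 members and 10 genes of the 5 lists. TNF signaling pathway is also there, with 17 genes, 13 up and 4 down, at an adjusted p of 0.0052. It contains 0 of the members and 9 genes of the 5 lists. In all, DESeq2 called 5 listed genes here and limma 0, so the genes of this term are not all called changes. In the authors' deposited table for BMSC-CT, the Rheumatoid arthritis term with 44 genes, 19 up and 25 down, contains Icam1 (adjusted p 0.0326). None of the 9 terms there is named for TNF or NF-κB.

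The genes most like each member were found by Pearson correlation of log2(RPM + 1) over the 12 libraries among 12581 genes. These values share the same libraries and their depth, and are descriptions. Icam1 was closest to Ezr, Eif3c and Slc7a1 (0.996, 0.994 and 0.992). Without BMSC-CT replicate 3, with no new ranking, the same 3 genes were at 0.995, 0.994 and 0.991. Nfkb1 was closest to Fbxo21, Ubqln1 and Wbscr17 (0.993 to 0.994, and 0.961 to 0.981 without that library), and Nfkbia to Cnn3, Kdm1a and Sbds (0.977 to 0.983, and 0.915 to 0.958 without it). Relb was closest to Cdipt, Elp5 and Bckdk (0.972 to 0.975), Rela to Por, Ppp2r1a and Tmem63a (0.939 to 0.951) and Nfkb2 to Ccnd3, Dnase1l1 and Ctbp1 (0.895 to 0.924). Tnfaip3 was at 0.996 with Eif4g1, Copa and Fam120a, and at 0.902 to 0.922 without BMSC-CT replicate 3. Tnf under ENSRNOG00000000837 had the loosest matches, at 0.819 with Tmem116, 0.803 with Wdr66 and 0.801 with Rp9.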

How the data were processed

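RNA was sequenced from 12 rat libraries, grouped by the sample titles into 4 groups of 3. The submitters' processing notes name the aligner Bowtie 0.12.2 and the mouse build mm8. The tables carry rat Ensembl IDs, the rat build is not given in the sources used here, and no gene coordinates are printed from the tables. The authors deposited 1 table per comparison, with 18616 and 19355 genes. Per the file headers the values are normalized counts (a signal per gene and library, unit signal), and 100% of these deposited values were whole reads times 1 factor per library within a tolerance of 0.01, with 1 read worth 0.813 to 1.61. The authors' own log2 fold changes, p-values and KEGG adjusted p stand in the deposited tables. KEGG values are quoted as theirs, and gene lengths were used as deposited for RPKM. IDs without a symbol, 904 and 745, took 0.641% to 1.55% of reads, and were tested but not named. No column was left without a sample (0).

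Since the unit is normalized counts, the test was limma 3.58.1 (trend) in R 4.3.3 on log2(normalized count + 1), for genes with a mean of at least 1, with Benjamini-Hochberg adjustment over all genes tested. Genes with an adjusted p under 0.05 are called, and fold changes are on that log2 scale, where those of low genes depend on the pseudocount. edgeR 4.0.16 and DESeq2 1.42.0 were run on the recovered reads. An exact permutation test of 3 against 3 cannot give a p under 0.1. RPM (reads scaled to a total of 1000000 per library) and RPKM come from the recovered reads. The limma step was first tested on simulated data. The alternatives were other pseudocounts, filters, scalings, variance estimates, a replicate block and each library left out. Summing the Tnf rows, and the GGAAATTCC motif, were added after seeing the data.

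The members, the pathway lists and the cell type markers were chosen with earlier results of these data known. The genes named are all members, up to 4 called genes per list and comparison with the smallest p, and the 3 genes most like each member. Other names are marked as chosen after their values were seen. The replicate numbers were not used as pairs in the main fit, and whether they pair the samples is not known. Counts of reads without molecular identifiers carry counting error beside the spread between libraries. The deposited lists of protein interactions and of GO terms were not used.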

Additional observations from a re-analysis of the deposited data

How the results depend on the processing

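Of 306 values of single members under the alternatives, 288 kept their direction and side of the threshold, 12 turned in sign, 3 gained the call and 3 lost it. In BMSC-CT against BMSC-C, where 3134 genes, 1 member and 27 listed genes were called (1295 genes higher and 1839 lower), quality weights per library called 9217 genes, 3 members and 69 listed genes, and DESeq2 5504 and 44. Scaling to the same total gave 787 higher and 1968 lower, and quantile normalization 1929 and 1794. Leaving out 1 library gave 736 to 7204 genes, 0 to 2 members and 11 to 61 listed genes, with the highest counts without BMSC-CT replicate 3. In BF-D against BF-C, where 2 genes were called, a minimum mean of 10 and the replicate block gave 0, quality weights 147 with 10 listed genes, and DESeq2 72 with 5. Leaving out 1 library gave 0 to 264 genes, 0 members throughout and 0 to 12 listed genes, the most without BF-D replicate 2.

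Signs turned for values that were not called: in BMSC-CT, Rela (-0.072) and Nfkb2 (-0.31) with the same total, Nfkb2 (-0.24) with quantile normalization, and Tnfaip3 (0.12) with weights; in BF-D, Nfkb1 (0.0066) and Icam1 (0.0057) with weights. With 1 library left out the log2 fold changes ran from -0.060 to 0.27 for Nfkb2, -1.04 to 0.12 for Tnf under ENSRNOG00000055156 and -2.51 to 0.22 for Tnfaip3 in BMSC-CT, and from -0.15 to 0.018 for Nfkb1 and -0.099 to 0.017 for Icam1 in BF-D. Nfkb1 was called with weights (-0.64, adjusted p 0.00435). With both Tnf rows summed the log2 fold changes were 0.77 and 2.08. The cause of these shifts was not tested.

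Same-numbered libraries correlated in their deviations at 0.199, -0.0209 and 0.183 in the BMSC groups and at 0.0140, 0.0196 and -0.00285 in the BF groups. BMSC-C replicates 1 and 3 and BF-C replicate 2 correlated best with their own number. BMSC-C replicate 2 and BF-C replicates 1 and 3 did not. Deviations within a group balance out, so these values cannot show whether the numbers pair the samples. The replicate block called 3003 genes, 1 member (Icam1) and 29 listed genes in BMSC-CT, and 0 genes in BF-D. Summed over both rows, Tnf had 0 to 13 reads per library in the BF groups and 17 to 98 in the BMSC groups. The cause of the spread among the BMSC libraries was not tested.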

Other observations

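Across the pathway lists, the κB consensus was found in 8 of 21 RefSeq promoters of target genes (38.1%), 5 of 17 of inhibitors and feedback regulators (29.4%), 3 of 9 of ligands (33.3%), 4 of 17 of adaptors and kinases (23.5%) and 3 of 18 of receptors (16.7%), in the window of 250 bases before to 50 after the start, against 7.51% of all promoters. These shares were not tested.

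Rel, the gene of the fifth subunit, was chosen after its values were seen. It had a mean of 93.3 ± 7.54 normalized counts in BMSC-C and 35.9 ± 19.0 in BMSC-CT (log2 fold change -1.53, adjusted p 0.0827 by limma, 0.0242 by DESeq2 and 0.0130 by limma without BMSC-CT replicate 3), and 36.6 ± 7.28 normalized counts in BF-C and 24.9 ± 1.11 in BF-D (log2 fold change -0.52, adjusted p 0.706 by limma). In the BMSC comparison DESeq2 called 32.7% of all genes, and limma without BMSC-CT replicate 3 called 43.0%. Nfkbiz, a nuclear IκB protein needed for Il6 induction in mice and also chosen after its values were seen, had 3618 ± 145 normalized counts in BMSC-C and 2806 ± 345 in BMSC-CT (log2 fold change -0.37, adjusted p 0.178 by limma), and 3297 ± 35.4 normalized counts in BF-C and 3266 ± 56.3 in BF-D (log2 fold change -0.01, adjusted p 0.953 by limma).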
